A study of Mus musculus with 8 samples.

Results

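Nuclear genes for the oxidative phosphorylation machinery were followed in NIH3T3 cells, an established mouse embryonic fibroblast line, after 1 day with the compound Mic-628 or with vehicle. The set was chosen by symbol alone: names beginning with Ndufa, Ndufb, Ndufc, Ndufs, Ndufv, Uqcr, Cox followed by a digit from 4 to 8, or Atp5, plus Sdha to Sdhd. The pattern matched 117 rows of the deposited table, of which 15 with pseudogene names were left out. A second, lower row of Atp5po was also left out, which gave 101 genes among 78298 rows. They fell into complex I (42 genes), complex I assembly factors (8 genes named Ndufaf, which the pattern takes in), complex II (4), complex III (8), complex IV (21, with Ndufa4 and its paralog Ndufa4l2 placed here) and complex V (18, with the inhibitor Atp5if1).

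Poly(A) RNA was sequenced from 4 Mic-628 libraries and 4 vehicle libraries. All cells were labelled WT fibroblasts grown in DMEM with 10% serum, and no genotype or agent other than Mic-628 separated the groups. No dose is given, and NIH3T3 is a line grown in culture, not a tissue. A batch number from 1 to 4 is attached to every library in the labels, with 1 Mic-628 and 1 vehicle library to a number. Whether replicate libraries came from separate cultures is not stated. In such bulk libraries, fewer cells of a kind and less RNA per cell cannot be told apart. The p-values measure spread among these libraries only, and that spread may be technical.

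The respiratory chain sits in the inner mitochondrial membrane. Complexes I and II feed electrons from NADH and succinate to coenzyme Q, complex III passes them on to cytochrome c, and complex IV hands them to oxygen. Complexes I, III and IV pump protons, and complex V, the ATP synthase, uses the return flow to make ATP. Most subunits are encoded in the nucleus and imported, while a small core set is encoded in mitochondrial DNA, so all the complexes other than complex II are built from the products of both genomes.

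Between 18.1 M and 23.2 M (M, mega) counts per library fell on listed transcripts. All 8 fibroblast markers examined were expressed, Vim at 1787 to 1877 FPKM (fragments per kilobase of exon, scaled to library size) in Mic-628 libraries and 2059 to 2167 FPKM in vehicle libraries. The muscle genes Myod1, Myog and Actc1 were listed at 0 in all 8 libraries, as were the adipocyte gene Adipoq and the macrophage gene Adgre1. Other genes of these lists were detected: Cd68, a lysosomal protein abundant in macrophages, at 7.1 to 7.69 FPKM in Mic-628 libraries and 6.36 to 6.9 FPKM in vehicle libraries, and Csf1r, a growth factor receptor of macrophages, at 1.67 to 1.87 FPKM in Mic-628 libraries and 1.45 to 1.68 FPKM in vehicle libraries. Fabp4, a fatty acid binding protein of adipocytes and macrophages, was at 0.741 to 1.06 FPKM in Mic-628 libraries and 0.312 to 0.659 FPKM in vehicle libraries. The groups did not overlap for Cd68 and Fabp4, which were higher with Mic-628. They also did not overlap for the fibroblast markers Vim, Col1a2 and Col3a1, which were lower with Mic-628. Col3a1 was at 9.37 to 11.0 FPKM in Mic-628 libraries and 12.9 to 16.8 FPKM in vehicle libraries. Col1a1, Thy1, Pdgfra, Pdgfrb and S100a4 overlapped. The adipocyte gene Plin1, near 0 in both groups, was lower without overlap. The part of these genes in the results was not tested. The oxidative phosphorylation genes took 0.624%, 0.636%, 0.661% and 0.667% of the counts in Mic-628 replicates 1 to 4, against 0.669%, 0.644%, 0.635% and 0.64% in vehicle replicates 1 to 4. The groups overlapped, with means of 0.647% ± 0.0204 for Mic-628 and 0.647% ± 0.0151 for vehicle (SD, n = 4 each).

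None of the nuclear oxidative phosphorylation genes was called higher or lower after Mic-628. Enough counts for the test were present for 88 of the 101 genes, and edgeR's quasi-likelihood test called 0 of these 88 at an adjusted p under 0.05. In the same fit 4.37% of the 17128 tested rows were called, 2.13% higher and 2.25% lower. Among the 6745 rows with a level like that of the middle 80% of these genes (16.2 to 124 CPM, counts scaled to library size), the share called was 6.0%. DESeq2, limma on FPKM and edgeR with batch as a block also called 0 of the 88, where they called 4.09%, 1.64% and 3.64% of their rows. Before adjustment, 5 of the 88 (5.68%) had an edgeR p under 0.05, against 17.0% of all tested rows and 21.8% of rows at that level.

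The differences that were estimated were small. Log2 fold changes, Mic-628 over vehicle, ran from -0.17 to 0.20 with a median of -0.0058, against a median of -0.004 over all tested rows. Of the 88, 40 were above 0 and 48 were below. The median absolute log2 fold change was 0.045, against 0.072 over all tested rows and 0.05 over the rows of like level. For 83 of the 88 the 95% interval of the log2 fold change, taken gene by gene without adjustment, lay within 1.2-fold either way (a log2 of 0.26). The same held for 56.5% of all tested rows and for 93.8% of those of like level, so the narrow intervals are not particular to these genes. The other 5 were Atp5me, Cox6a2, Ndufaf3, Ndufaf6 and Ndufb3. Within 1.5-fold (0.58) the intervals of all 88 were contained, and within 1.1-fold (0.14) those of 41.

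**Figure D1:**
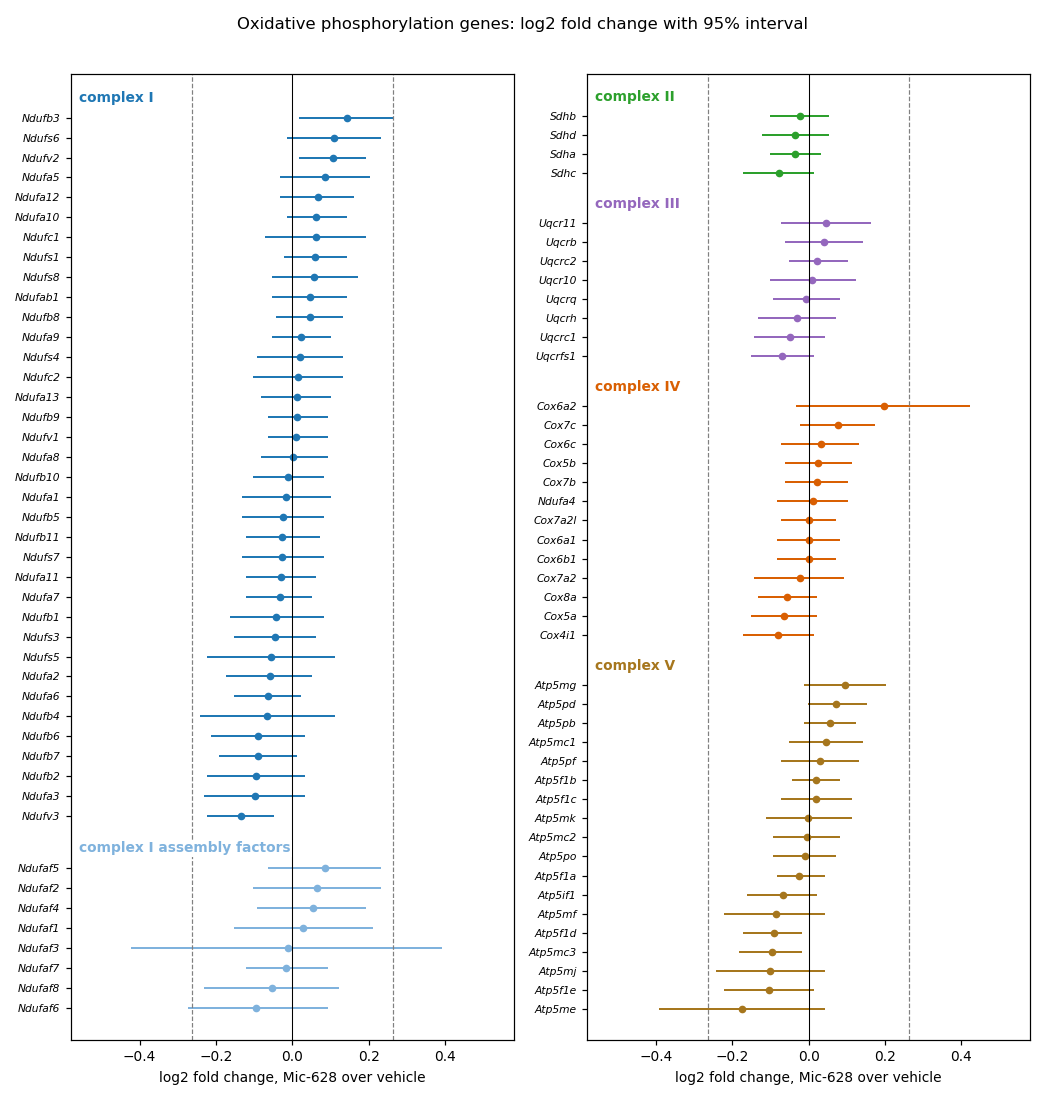
Log2 fold changes of 87 of the 88 tested oxidative phosphorylation genes, Mic-628 over vehicle (horizontal axis), grouped by complex; points are edgeR estimates, bars are 95% intervals, and dashed lines mark 1.2-fold either way. Estimates lie between -0.17 and 0.20, and the intervals stay between the dashed lines except those of Atp5me, Cox6a2, Ndufaf3 and Ndufaf6, which pass them, and that of Ndufb3, which ends at the line.

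**Figure D2:**
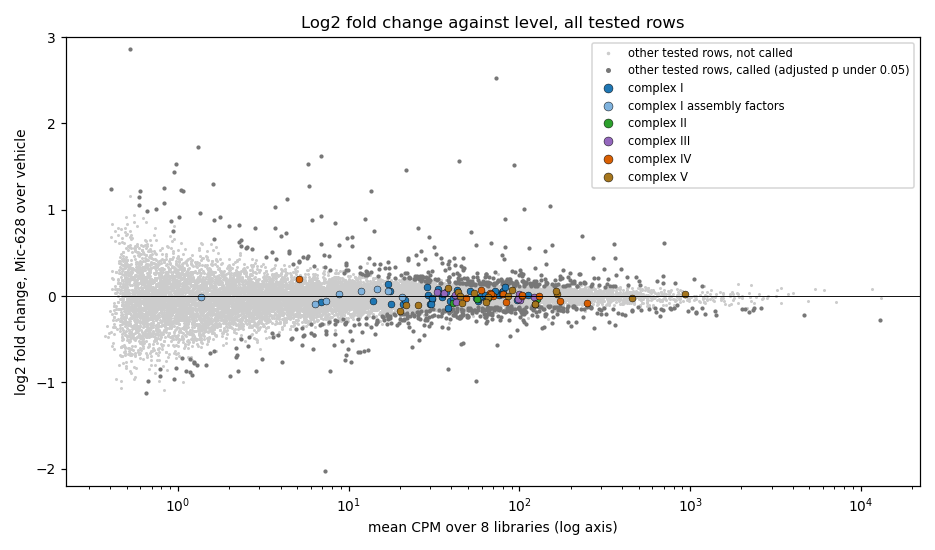
Log2 fold change, Mic-628 over vehicle, against mean CPM over 8 libraries (log axis) for all 17128 tested rows, with the rows called by edgeR and the oxidative phosphorylation genes marked in their own colours. The 88 marked genes lie in a narrow band around 0 within the expressed range, and 0 of them is among the 749 called rows.

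Promoter sequence was examined because the series is about an inducer of a clock gene, and because a few transcription factors are known to bind many respiratory chain promoters. The windows come from RefSeq, build GRCm38.p6, which is not the build of the deposited coordinates, and hold 250 bases before and 50 bases after a gene's start. Of the 101 genes, 97 matched a RefSeq gene and 77 had a window; 72 tested genes had 77 windows. The E-box CACGTG, a palindrome that the clock activators CLOCK and BMAL1 bind, was found in 9.09% of the 77 windows, against 7.15% of all 32851 windows. These were 7 windows of 6 genes out of 72, because the same Ndufa7 site lay in overlapping windows and was counted in each. The share in the set was thus close to that over all windows, and no link of these genes to the clock was tested. The following stretches show the E-box in capitals with up to 25 bases on either side, and are given to show where the letters lie.
Atp5mc1, chr11:96075645-96075700 (-): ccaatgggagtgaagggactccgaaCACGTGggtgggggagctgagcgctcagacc
Atp5mc3, chr2:73911534-73911576 (-): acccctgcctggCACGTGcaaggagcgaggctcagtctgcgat
Atp5mg, chr9:44920859-44920914 (-): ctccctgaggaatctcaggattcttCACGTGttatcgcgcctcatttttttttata
Atp5pb, chr3:105959482-105959513 (-): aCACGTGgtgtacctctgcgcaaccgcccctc
Ndufa7, chr17:33824475-33824530 (+): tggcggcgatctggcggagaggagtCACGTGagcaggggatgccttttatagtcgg
Ndufv1, chr19:4012894-4012949 (-): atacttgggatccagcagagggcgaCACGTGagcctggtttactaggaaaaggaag

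The log2 fold changes of these 6 E-box genes were 0.05 for Atp5mc1, -0.10 for Atp5mc3, 0.09 for Atp5mg, 0.06 for Atp5pb, -0.03 for Ndufa7 and 0.01 for Ndufv1. They lay on both sides of 0. Because 0 of the 88 tested genes were called, calls cannot compare genes with and without the E-box. The D-box TTATGTAA (TTACATAA on the other strand), bound by clock output factors of the PAR bZIP family, was found in 1 window, that of Cox7b (1.3%, against 0.938% of all windows).

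The core CGCATGCG of the motif of NRF1 (nuclear respiratory factor 1), a palindrome, was found in 14.3% of the windows of the set, against 1.87% of all windows. NRF1 is an activator of many respiratory chain genes. The core lay in the windows of 11 genes, and 6 stretches are shown with the core in capitals. Those shown are of genes described in the text or of 1 gene each from complex I and its assembly factors. Ndufaf5 and Uqcr11 are also described, but their cores do not lie wholly before the gene's start, and no stretch is shown.
Atp5mc2, chr15:102671056-102671113 (-): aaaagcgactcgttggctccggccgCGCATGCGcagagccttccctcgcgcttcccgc
Atp5me, chr5:108434416-108434473 (-): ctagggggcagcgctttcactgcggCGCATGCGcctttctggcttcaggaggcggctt
Atp5mg, chr9:44920951-44920992 (-): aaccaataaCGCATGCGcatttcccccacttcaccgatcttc
Cox6a1, chr5:115349087-115349144 (-): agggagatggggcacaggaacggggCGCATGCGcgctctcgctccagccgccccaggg
Ndufa11, chr17:56717678-56717735 (+): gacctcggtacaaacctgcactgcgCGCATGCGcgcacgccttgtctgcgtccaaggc
Ndufaf4, chr4:24897946-24898003 (+): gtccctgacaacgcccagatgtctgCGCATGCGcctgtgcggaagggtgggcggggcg

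The log2 fold changes of the 11 genes lay on both sides of 0. Those above were Atp5mg (0.09), Ndufaf5 (0.09), Ndufaf4 (0.05), Uqcr11 (0.05), Atp5pf (0.03) and Ndufa8 (0.001). Those below were Atp5me (-0.17), Uqcrc1 (-0.05), Ndufa11 (-0.03), Atp5mc2 (-0.005) and Cox6a1 (-9.03e-05). The YY1 core AAGATGGC (GCCATCTT on the other strand) was found in 14.3% of the windows of the set, against 2.75% of all windows. The ETS motif CCGGAAGT (ACTTCCGG on the other strand), bound by GABPA among others, was found in 6.49%, against 3.89% of all windows. None of the 5 motifs contains another. A match is a match of letters on either strand, not a measured binding site. With 0 calls in the whole set, calls say nothing about any of the 5 motifs.

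Complex I, the NADH dehydrogenase, had 37 tested genes and 0 calls, with a median log2 fold change of -0.0122 and a range from -0.13 to 0.14. Levels ran from 3.73 FPKM for Ndufb2, whose row has an exon length of 4364 bases, to 109.8 FPKM for Ndufb8, with a median of 44.6. Ndufb8, an accessory subunit of the membrane arm, was at 107, 107, 114 and 118 FPKM in Mic-628 replicates 1 to 4, against 107, 109, 104 and 113 FPKM in vehicle replicates 1 to 4. The groups overlapped, and the log2 fold change was 0.05 ± 0.0395 (standard error; edgeR adjusted p = 0.609).

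Ndufv3 had the lowest log2 fold change of complex I and the smallest p of the whole set. It is an accessory subunit of the NADH-oxidising module; the row is transcript ENSMUST00000064798.16 at chr17:31739089-31750305 of mm39, on the plus strand, with 488 bases of exon. It was at 70.9, 69.6, 67.7 and 67.9 FPKM in Mic-628 replicates, against 78.7, 78.5, 72.4 and 73.2 FPKM in vehicle replicates. All 4 Mic-628 libraries were below all 4 vehicle libraries, and the log2 fold change was -0.13 ± 0.0432 (SE), with a p of 0.00478 before and 0.0815 after adjustment in edgeR. Of the 88 genes, it was the 1 whose groups did not overlap in CPM, where 10.7% of all tested rows did not overlap either way and 5.07% were lower without overlap.

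Ndufb3, a small accessory subunit of the membrane arm at chr1:58625543-58635123 (mm39), had the highest value of complex I. It was at 20.9, 21.2, 21.9 and 22.7 FPKM in Mic-628 replicates, against 21.1, 19.0, 19.9 and 18.8 FPKM in vehicle replicates. Vehicle replicate 1 lay within the Mic-628 values, and the log2 fold change was 0.14 ± 0.0592 (standard error; edgeR adjusted p = 0.204).

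Ndufv2, a core subunit of the NADH-oxidising module that carries an iron-sulfur cluster, is named after its values were seen. It was at 47.1, 45.5, 47.9 and 46.3 FPKM in Mic-628 replicates, against 47.9, 41.5, 42.2 and 42.0 FPKM in vehicle replicates, with a log2 fold change of 0.11 ± 0.0413 (standard error; edgeR adjusted p = 0.164). Vehicle replicate 1 was as high as the Mic-628 libraries and the other vehicle libraries were lower. Without that library the log2 fold change was 0.16 with an edgeR adjusted p of 0.00697, and Ndufv2 was then the only gene called of the set, in a fit that called 4.64% of all rows. Without batch 1, a setting chosen after seeing the data, Ndufv2 (0.15, edgeR adjusted p = 0.0118) and Ndufs6 (0.21, edgeR adjusted p = 0.0187) were called, where the fit called 4.26% of rows. Ndufs6, an accessory subunit of the peripheral arm also named after its values were seen, was at 41.9, 49.7, 50.5 and 53.1 FPKM in Mic-628 replicates, against 49.2, 44.6, 44.8 and 43.3 FPKM in vehicle replicates. In batch 1 the Mic-628 value was the lower of the pair, and in the other 3 batches it was the higher.

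Other core subunits of complex I were also examined, and the intervals of Ndufv1, Ndufs1, Ndufs3, Ndufs7 and Ndufs8 spanned 0. The flavin-binding Ndufv1 was at 63.9 ± 2.66 FPKM in Mic-628 libraries and 63.5 ± 2.24 FPKM in vehicle libraries (SD, n = 4 each; edgeR adjusted p = 0.93). Ndufs1, which carries iron-sulfur clusters, was at 25.8 ± 0.793 FPKM in Mic-628 libraries and 24.8 ± 0.99 FPKM in vehicle libraries (SD, n = 4 each; edgeR adjusted p = 0.44).

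The 8 complex I assembly factors, which help build the complex without staying in it, were the lowest group, from 0.85 FPKM for Ndufaf3 to 16.3 FPKM for Ndufaf2, with a median of 7.2. None was called, and the median log2 fold change was 0.0075. Ndufaf5, which hydroxylates a complex I subunit during assembly, had the highest value. It was at 12.8, 11.0, 12.3 and 12.3 FPKM in Mic-628 replicates, against 13, 10.5, 11.3 and 10.9 FPKM in vehicle replicates (log2 fold change 0.09, edgeR adjusted p = 0.599). Ndufaf6, a factor of early assembly steps, had the lowest, at 4.95, 5.38, 5.41 and 5.52 FPKM in Mic-628 replicates against 5.66, 5.75, 5.49 and 5.83 FPKM in vehicle replicates. Mic-628 was lower in all 4 batches, but the highest Mic-628 library passed the lowest vehicle library, and the log2 fold change was -0.09 ± 0.0873 (standard error; edgeR adjusted p = 0.647). Of the 88 tested genes, 4 were lower and 3 were higher with Mic-628 in all 4 batches. The same share over all tested rows was not counted, so agreement across batches is a description only. Ndufaf2 was at 16.9, 15.3, 16.9 and 17.6 FPKM in Mic-628 replicates, against 17.8, 17.2, 13.4 and 15.2 FPKM in vehicle replicates, so the groups overlapped throughout (edgeR adjusted p = 0.759).

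Complex II, succinate dehydrogenase, has 4 subunits, all of them nuclear, and is shared with the citric acid cycle. All 4 log2 fold changes were below 0, from -0.08 to -0.02, and none was called. Sdhc, a membrane anchor, had the lowest, at 11.1, 12.0, 11.8 and 11.7 FPKM in Mic-628 replicates against 12.7, 13, 12.0 and 11.7 FPKM in vehicle replicates (log2 fold change -0.08 ± 0.0435, standard error; edgeR adjusted p = 0.376). Sdhb, the iron-sulfur subunit and the most abundant of the 4, was at 51.8, 52.6, 54.3 and 53.6 FPKM in Mic-628 replicates, against 53.5, 54.7, 53.1 and 54.5 FPKM in vehicle replicates. The groups overlapped, and the 95% interval of the log2 fold change ran from -0.10 to 0.05. The flavoprotein Sdha was at 40.3 ± 0.356 FPKM in Mic-628 libraries and 41.4 ± 1.18 FPKM in vehicle libraries (SD, n = 4 each; edgeR adjusted p = 0.631). The second anchor Sdhd was at 42.1 ± 1.72 FPKM in Mic-628 libraries and 43.1 ± 1.66 FPKM in vehicle libraries (SD, n = 4 each; edgeR adjusted p = 0.721).

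Complex III, the cytochrome bc complex, had 8 tested genes, 0 calls and a median log2 fold change of 0.0011, with a range from -0.07 to 0.05. Uqcrh, the hinge protein and the most abundant, was at 159, 171, 159.7 and 171 FPKM in Mic-628 replicates, against 193, 169, 155 and 159.7 FPKM in vehicle replicates. Vehicle replicate 1 was the highest and the rest overlapped (log2 fold change -0.03, edgeR adjusted p = 0.811). Uqcrfs1, the Rieske iron-sulfur protein, had the lowest log2 fold change. It was at 27.5, 28.2, 29.7 and 28.2 FPKM in Mic-628 replicates, against 30.8, 29.7, 29.4 and 29.5 FPKM in vehicle replicates (log2 fold change -0.07 ± 0.0399, standard error; edgeR adjusted p = 0.38). Of the 4 Mic-628 libraries, 3 lay below every vehicle library. Uqcr11, a small accessory subunit, had the highest, at 66.6, 66.5, 74.1 and 74.6 FPKM in Mic-628 replicates against 75.6, 67.2, 66.3 and 64.3 FPKM in vehicle replicates (log2 fold change 0.05, edgeR adjusted p = 0.735).

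Complex IV, cytochrome c oxidase, differs from the others in having tissue isoforms for several subunits. Of its 21 genes 13 were tested and 0 were called, with a median log2 fold change of 0.0005. The isoforms found in most tissues carried the expression. Cox4i1, the most abundant, was at 266, 296, 304 and 325 FPKM in Mic-628 replicates, against 329, 322, 302 and 307 FPKM in vehicle replicates (log2 fold change -0.08 ± 0.0434, standard error; edgeR adjusted p = 0.363). Mic-628 replicates 1 and 2 lay below every vehicle library, and replicates 3 and 4 lay within the vehicle values. Cox8a was at 276, 281, 308 and 283 FPKM in Mic-628 replicates, against 300.5, 295, 286 and 311 FPKM in vehicle replicates (edgeR adjusted p = 0.47). Cox6b1 was at 156 ± 1.52 FPKM in Mic-628 libraries and 156 ± 8.02 FPKM in vehicle libraries, and Ndufa4 at 160.3 ± 9.03 FPKM in Mic-628 libraries and 159 ± 10.3 FPKM in vehicle libraries (SD, n = 4 each).

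The isoforms known from heart and muscle, testis, lung or hypoxic cells were near 0. Cox4i2, the isoform of lung and low oxygen, summed to 4.0 counts over the 4 Mic-628 libraries and 1.0 over the 4 vehicle libraries. The heart and muscle isoform Cox7a1 summed to 11.5 counts in Mic-628 libraries and 10.5 in vehicle libraries, and Cox8b to 0.0 counts in Mic-628 libraries and 0.5 in vehicle libraries. Cox6b2, known from testis, had 0.0 counts in Mic-628 libraries and 0.5 in vehicle libraries, and Ndufa4l2, induced by hypoxia in other cells, had 8.5 in Mic-628 libraries and 14.0 in vehicle libraries. In all, 13 of the 101 genes were not tested. Of these, 3 (Cox7b2, Cox8c and Ndufb11b) had 0 counts in every library, and the other 10 averaged at most 1.13 FPKM, the value of Cox6c2.

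Cox6a2, the heart and muscle isoform of subunit 6a, was the exception. It was at 7.25, 7.86, 8.44 and 6.21 FPKM in Mic-628 replicates, against 6.39, 6.83, 7.03 and 5.75 FPKM in vehicle replicates, while Myod1, Myog and Actc1 were at 0. Mic-628 was higher in all 4 batches, as it was for 3 of the 88 genes in all. The groups overlapped, and the log2 fold change of 0.20 ± 0.11 (SE), the highest of the 88, had an edgeR adjusted p of 0.377. Its partner Cox6a1 was at 119, 106, 119 and 112 FPKM in Mic-628 replicates, against 114, 113, 115 and 114 FPKM in vehicle replicates. Cox6a2 thus stood at 6.11% of the Cox6a1 level. The log2 ratio of Cox6a2 to Cox6a1 averaged -3.95 ± 0.191 in Mic-628 libraries and -4.14 ± 0.129 in vehicle libraries (SD, n = 4 each), a difference of 0.19 with an exact two-sided permutation p of 0.229 (0.457 adjusted).

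Cox7a2l, a paralog of Cox7a2 that joins complexes III and IV into supercomplexes, was at 105, 113, 115 and 114 FPKM in Mic-628 replicates, against 113, 110.4, 111 and 114 FPKM in vehicle replicates. Its log2 ratio to Cox7a2 averaged 0.71 ± 0.129 in Mic-628 libraries and 0.68 ± 0.0931 in vehicle libraries (SD, n = 4 each), with an exact two-sided permutation p of 0.629. Of the 7 isoform pairs considered, these 2 had both genes tested, and 0.0286 is the smallest p that 4 against 4 libraries allow.

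**Figure D3:**
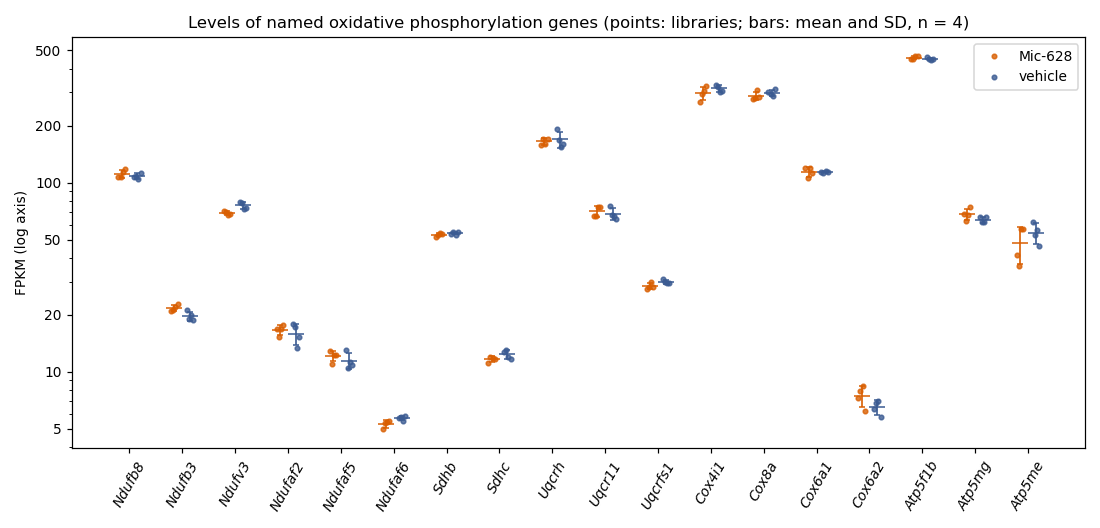
FPKM in each library for selected genes of the set, on a log axis, with Mic-628 left of vehicle for each gene, points for libraries and bars for the mean and SD (n = 4). The abundant isoforms such as Cox4i1, at 266 to 325 FPKM with Mic-628 and 302 to 329 FPKM with vehicle, lie far above Cox6a2, at 6.21 to 8.44 FPKM with Mic-628 and 5.75 to 7.03 FPKM with vehicle.

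Complex V, the ATP synthase, held the most abundant gene of the set. Its 18 genes were all tested, 0 were called, and log2 fold changes ran from -0.17 to 0.09 with a median of -0.0071. Atp5f1b, the catalytic beta subunit, was at 451, 448, 465 and 468 FPKM in Mic-628 replicates, against 461, 453, 447 and 448 FPKM in vehicle replicates. The groups overlapped, and the 95% interval of the log2 fold change ran from -0.04 to 0.08. The alpha subunit Atp5f1a was at 171 ± 1.51 FPKM in Mic-628 libraries and 174 ± 2.5 FPKM in vehicle libraries, and the gamma subunit Atp5f1c at 135 ± 6.42 FPKM in Mic-628 libraries and 133 ± 10.5 FPKM in vehicle libraries (SD, n = 4 each).

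Atp5me and Atp5mg, which encode the small membrane subunits e and g that hold ATP synthase dimers together, had the lowest and the highest value of complex V. Atp5me was at 41.6, 36.3, 56.6 and 57.2 FPKM in Mic-628 replicates, against 62.1, 52.7, 56.0 and 46.0 FPKM in vehicle replicates. Mic-628 replicates 1 and 2 were the lowest libraries, and replicates 3 and 4 lay within the vehicle values. The log2 fold change was -0.17 ± 0.105 (standard error; edgeR adjusted p = 0.419), and -0.34 with an edgeR adjusted p of 0.0467 without batch 4, in a fit that called 3.89% of rows. Atp5mg was at 68.4, 62.3, 67.8 and 74.1 FPKM in Mic-628 replicates, against 65.9, 62.0, 61.6 and 65.8 FPKM in vehicle replicates. Mic-628 was higher in all 4 batches by small amounts, with a log2 fold change of 0.09 ± 0.0498 (standard error; edgeR adjusted p = 0.346).

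Subunit c, of which the rotor ring is made, is encoded by 3 genes whose mature proteins are the same. Atp5mc3, named after its values were seen, was at 147, 154, 169 and 159.5 FPKM in Mic-628 replicates, against 167, 164, 168 and 176 FPKM in vehicle replicates (log2 fold change -0.10 ± 0.0384, standard error; edgeR adjusted p = 0.173). Mic-628 was lower in 3 of 4 batches. Of the summed FPKM of the 3 genes, Atp5mc3 took 57.1% ± 0.905 in Mic-628 libraries and 58.8% ± 1.11 in vehicle libraries, Atp5mc2 took 39.7% ± 0.918 in Mic-628 libraries and 38.3% ± 1.13 in vehicle libraries, and Atp5mc1 took 3.16% ± 0.0572 in Mic-628 libraries and 2.94% ± 0.133 in vehicle libraries (SD, n = 4 each). The row of Atp5mc1 has 4706 bases of exon, against 722 for Atp5mc2 and 705 for Atp5mc3. FPKM is divided by that length, so the share of Atp5mc1 depends on it. In counts the 3 genes were closer, for example 978, 1854.5 and 2720 for Atp5mc1, Atp5mc2 and Atp5mc3 in Mic-628 replicate 2. The FPKM shares are a description and were not tested.

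Atp5f1d, the delta subunit of the central stalk, also named after its values were seen, was at 76.3, 75.2, 81.5 and 82.9 FPKM in Mic-628 replicates, against 84.0, 84.9, 82.1 and 85.8 FPKM in vehicle replicates. Mic-628 was lower in all 4 batches, with a log2 fold change of -0.09 ± 0.0357 (standard error; edgeR adjusted p = 0.165), and 1 Mic-628 library passed the lowest vehicle library. Atp5if1, the inhibitor that blocks the synthase from running backwards, was at 107 ± 5.47 FPKM in Mic-628 libraries and 113 ± 6.74 FPKM in vehicle libraries (SD, n = 4 each; edgeR adjusted p = 0.451).

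In some libraries most of the genes lay on the same side of their means. Averaged over the 88 genes, the deviation of log2 CPM from each gene's mean was -0.067, -0.04, 0.036 and 0.055 in Mic-628 replicates 1 to 4, against 0.064, -0.007, -0.022 and -0.018 in vehicle replicates 1 to 4. In Mic-628 replicates 1 and 2, 71 and 70 of the 88 genes lay below their own mean, whereas in Mic-628 replicate 3 it was 29, and in Mic-628 replicate 4 and vehicle replicate 1 it was 18 each. In vehicle replicates 2, 3 and 4 it was 47, 58 and 47. The mean over Mic-628 libraries minus that over vehicle libraries was -0.00827, against a range of 0.131 over the libraries. Complex V had the widest swing, from -0.079 in Mic-628 replicate 2 to 0.098 in vehicle replicate 1.

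Short transcripts varied in part with the same libraries. The genes of the set are short, with a median exon length of 812 bases against 2248 over all tested rows, and 53 of the 88 are under 1000 bases. Over the 3585 other tested rows under 1000 bases the mean deviation was -0.05, 0.0, -0.02 and -0.003 in Mic-628 replicates 1 to 4, against 0.056, 0.045, -0.005 and -0.024 in vehicle replicates 1 to 4. Mic-628 replicate 1 was low and vehicle replicate 1 high in both, while in Mic-628 replicates 3 and 4 the oxidative phosphorylation genes were above 0 and the short rows were not. The median log2 fold change was -0.012 for the 53 shorter genes and 0.01 for the 35 longer ones, and the part of transcript length in these values was not tested.

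**Figure D4:**
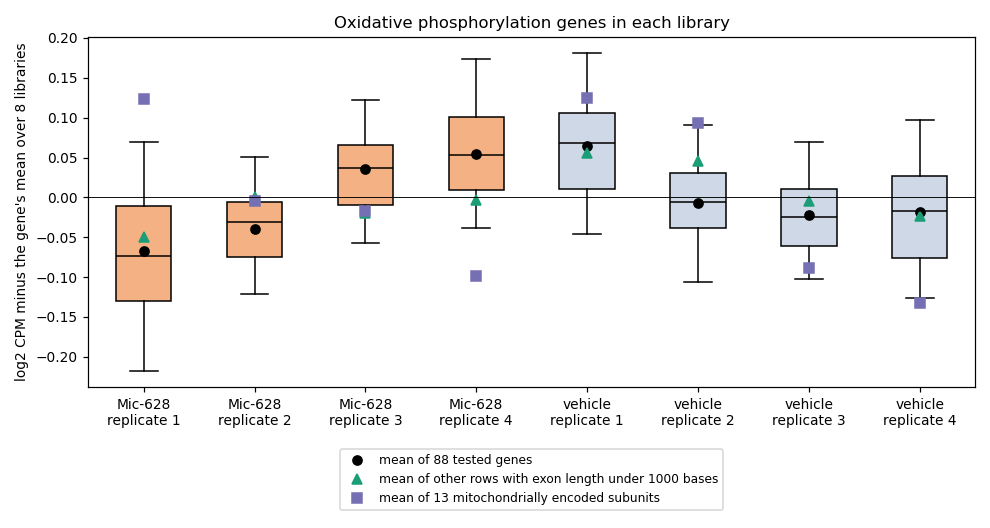
Deviation of log2 CPM from each gene's own mean over 8 libraries (vertical axis), by library: boxes and whiskers span the quartiles and the 5th to 95th percentiles of the 88 oxidative phosphorylation genes, circles are their means, triangles the means of other rows under 1000 bases, and squares the means of the 13 mitochondrially encoded subunits. The circles run from -0.067 in Mic-628 replicate 1 to 0.064 in vehicle replicate 1, and both groups span 0.

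Reads that could belong to other rows limit some values. Ndufs5-ps, a pseudogene row left out of the set, averaged 408.4 counts against 291.4 for Ndufs5 itself, and Ndufa12-ps averaged 194.7 against 901.3 for Ndufa12. How the authors counted reads that fit several places is not given in the sources used here, so the values of these parent genes are uncertain. Ndufs5 was at 24.2 ± 1.44 FPKM in Mic-628 libraries and 25.2 ± 3.49 FPKM in vehicle libraries (SD, n = 4 each), and neither it nor the pseudogene row (edgeR adjusted p = 0.18) was called. The spans of 35 tested genes overlap another tested row, in 33 cases on the opposite strand, and 0 overlap a called row. Whether counting used the strand that the kit keeps is not given, so reads where such pairs share bases cannot be told apart. Ndufb8, Ndufb9, Ndufb2 and Atp5po overlap a tested row on the same strand, which strand cannot separate. For Ndufb8 that row, Gm20538, averaged 1500 counts against 1670 for Ndufb8 itself, so the Ndufb8 values are uncertain. The overlaps are of whole spans, and whether exons overlap was not tested.

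The 13 subunits encoded in mitochondrial DNA form the same complexes with these genes. All 13 were tested, 0 were called, and 5 had an edgeR p under 0.05 before adjustment. That is 38.5%, against 17.0% of all tested rows. The median log2 fold change was 0.0692, with a range from -0.38 to 0.13. The lowest value was that of mt-Nd3, listed at only 3.71 ± 0.39 FPKM in Mic-628 libraries and 4.88 ± 1.68 FPKM in vehicle libraries (SD, n = 4 each). Mitochondrial transcripts took 3.36%, 3.01%, 3.02% and 2.89% of the counts in Mic-628 replicates 1 to 4, against 2.98%, 2.89%, 2.83% and 2.82% in vehicle replicates 1 to 4, so the share was higher with Mic-628 in all 4 batches. DESeq2 without a block and limma also called 0. The complex I subunit gene mt-Nd2 was at 2367, 2023, 2088 and 2008 FPKM in Mic-628 replicates, against 2092, 1909, 1869 and 1874 FPKM in vehicle replicates (log2 fold change 0.13 ± 0.0445, standard error; edgeR adjusted p = 0.0986, and 0.0266 with batch as a block). Another, mt-Nd1, averaged 3395 ± 225 FPKM in Mic-628 libraries and 3177 ± 158 FPKM in vehicle libraries (SD, n = 4 each; edgeR adjusted p = 0.221). The complex IV subunit gene mt-Co2 was listed at 16.2 ± 0.276 FPKM in Mic-628 libraries and 18.7 ± 3.26 FPKM in vehicle libraries (log2 fold change -0.21, edgeR adjusted p = 0.232). It was among the 5, and the others of the 5 were higher. The rows of mt-Co2, mt-Co3, mt-Atp6, mt-Atp8, mt-Nd3 and mt-Nd4l averaged 3.71 to 25.7 FPKM in Mic-628 libraries. The remaining mitochondrial subunit rows averaged 1155 to 7209.6 FPKM there. Why the low rows were so low was not tested, so their values are uncertain.

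Other mitochondrial genes were taken from lists that were also chosen with earlier results known. Of the assembly factors outside the symbol pattern, 46 of 47 were tested, 0 were called higher and 1 lower (2.17%, against 4.37% of all tested rows), and 5 (10.9%, against 17.0%) had an edgeR p under 0.05 before adjustment. The called gene was Nubpl, which helps insert iron-sulfur clusters into complex I, at 1.89, 2.35, 2.62 and 2.31 FPKM in Mic-628 replicates against 2.9, 2.68, 2.82 and 3.11 FPKM in vehicle replicates. All Mic-628 libraries were below all vehicle libraries, with a log2 fold change of -0.32 ± 0.0903 (standard error; edgeR adjusted p = 0.0422). The call was lost with batch as a block (edgeR adjusted p = 0.0582), in DESeq2 (adjusted p = 0.106) and on leaving out any library other than Mic-628 replicate 3, with edgeR adjusted p up to 0.149. The log2 fold change stayed at -0.32 with the block and in DESeq2, and was -0.25 without Mic-628 replicate 1, where that largest p was found. Atpaf1, which assembles the catalytic head of ATP synthase, was at 6.97 ± 0.149 FPKM in Mic-628 libraries and 6.29 ± 0.296 FPKM in vehicle libraries (SD, n = 4 each; edgeR adjusted p = 0.165). Timmdc1, a complex I assembly factor, was at 12.9 ± 0.197 FPKM in Mic-628 libraries and 11.8 ± 0.429 FPKM in vehicle libraries (edgeR adjusted p = 0.195).

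Of the 18 citric acid cycle and pyruvate dehydrogenase genes, 1 was called higher and 0 were called lower. That is 5.56%, against 4.37% of all tested rows called. Before adjustment, 7 (38.9%) had an edgeR p under 0.05, against 17.0% of all tested rows. Among rows at 16.2 to 124 CPM these shares were 6.0% and 21.8%, and neither comparison is matched to the level of this list. Idh3a, the catalytic subunit of the NAD-dependent isocitrate dehydrogenase, rose to 26.1, 25.9, 26.1 and 24.9 FPKM in Mic-628 replicates, against 23.3, 24.4, 23.3 and 22.0 FPKM in vehicle replicates. The groups did not overlap, and the log2 fold change was 0.15 ± 0.0377 (standard error; edgeR adjusted p = 0.0237, and 0.0376 with batch as a block). The adjusted p was 0.0818 in limma, 0.351 in DESeq2 with the block, and up to 0.0859 in edgeR on leaving out Mic-628 replicate 1, 2 or 3 or vehicle replicate 3 or 4. The log2 fold change was 0.14 in limma, 0.15 in DESeq2 with the block and 0.12 without vehicle replicate 4, where that largest edgeR p was found. Dld, the shared dehydrogenase subunit of the pyruvate and oxoglutarate complexes, was at 52.4 ± 1.2 FPKM in Mic-628 libraries and 48.5 ± 1.75 FPKM in vehicle libraries (SD, n = 4 each; edgeR adjusted p = 0.0622). Idh2, the mitochondrial NADP-dependent enzyme, was at 106 ± 4.01 FPKM in Mic-628 libraries and 113 ± 1.56 FPKM in vehicle libraries (edgeR adjusted p = 0.136).

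The remaining lists held 0 calls in edgeR, DESeq2 and limma. The 17 electron carrier and coenzyme Q genes had a median log2 fold change of 0.007, and 3 (17.6%) had an edgeR p under 0.05 before adjustment. Cytochrome c, Cycs, was at 22.9 ± 1.44 FPKM in Mic-628 libraries and 21.1 ± 1.05 FPKM in vehicle libraries (SD, n = 4 each; edgeR adjusted p = 0.154). The other named genes of this list were Coq10b, which encodes a coenzyme Q binding protein (log2 fold change 0.17), and Pdss1, a synthase of the coenzyme Q side chain (0.21), with edgeR adjusted p of 0.213 and 0.215. The 15 regulators of mitochondrial gene expression had a median of -0.0163, and 0 had an unadjusted p under 0.05. Among them the mitochondrial DNA packaging and transcription factor Tfam was at 8.63 ± 0.3 FPKM in Mic-628 libraries and 8.23 ± 0.429 FPKM in vehicle libraries (SD, n = 4 each; edgeR adjusted p = 0.466). Tfb2m, a mitochondrial transcription initiation factor, and Tfb1m, a methyltransferase of mitochondrial ribosomal RNA, both had a log2 fold change of 0.15, with edgeR adjusted p of 0.344 and 0.464. Of the 78 mitochondrial ribosomal protein genes 8 (10.3%) had an unadjusted p under 0.05, with a median of 0.0272, and the smallest edgeR adjusted p was 0.0983 for Mrps5 (log2 fold change 0.12). Mrpl50 (0.14) and Mrpl42 (0.13) followed, with edgeR adjusted p of 0.113 and 0.133.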

How the data were processed

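Poly(A) RNA from 4 Mic-628 and 4 vehicle libraries of NIH3T3 cells was sequenced as paired ends from a stranded kit, per the labels' protocols. Tools named in the submitters' processing notes, without their roles, are STAR 2.7.10a, HOMER 4.11 and bcl2fastq, and the build is GRCm39 (mm39). The authors deposited estimated counts per transcript row, in steps of 0.5, and FPKM for the same rows, which a recalculation from counts, exon length and header totals matched within 0.0005. Header totals ran from 19.6 M to 25.1 M (M, mega), and 0 columns were left unmatched.

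The deposited estimated counts were rounded and tested with edgeR 4.0.16 in R 4.3.3: filterByExpr (minimum count 10), TMM, quasi-likelihood F test without a block, and Benjamini-Hochberg adjustment over 17128 rows. A standard error is the size of the log2 fold change divided by the square root of F. FPKM served for levels and isoform ratios, with an exact test over all permutations of the 8 libraries for the 2 testable pairs. Where a symbol had several rows, that with the highest mean count was used. The members and lists were chosen with earlier results of these data known. Named by rule were the called genes, in each complex the most abundant gene and those with the highest and lowest log2 fold change, the tested isoform pair genes, and the 3 genes with the smallest p of each other list. Further genes are named for their role in a complex or as marked in the text.

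Because the labels state a batch number, libraries were paired by that number. Deviations from group means were correlated at -0.0925, 0.0744, -0.0213 and -0.0949 in same-numbered libraries and at -0.117 to 0.141 in others, over 10292 rows. The same-numbered values lay within the range of the others, so the correlations show no pairing. It rests on the labels alone, and statements by batch are descriptions only. Alternatives were the block, DESeq2 1.42.0 with and without it, other scaling and filters, limma 3.58.1 on log2(FPKM + 1) or log2(FPKM + 0.1), summing rows per symbol, a threshold of 0.01, leaving out each library, and, chosen after seeing the data, each batch. Replicates differed by more than counting noise (chi-square per gene at least 1.74). The edgeR test was checked on 1 simulated data set with 50 rows, of any level, changed at each of 4 sizes. It called 18 of 50 rows changed 1.2-fold, 34 of 50 at 1.5-fold, 46 of 50 at 2-fold and 49 of 50 at 3-fold. There were 10 false calls among the unchanged rows of 17128. Among rows of any level, changes near 1.2-fold were thus mostly missed, and 0 calls alone does not exclude them. The simulated rows were not matched to the 88 genes. The median standard error was 0.0454 for the 88 genes and 0.0671 over all tested rows, so 18 of 50 does not measure the power for this set. For the 88 genes the intervals, 83 of them within 1.2-fold, are the closer guide. Figures used matplotlib 3.10.9. Values of 1 gene of the set are not reported here, though the counts include it.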

Additional observations from a re-analysis of the deposited data

Results flagged for a closer look

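Of 90 groups of 4 libraries checked for a library far from the rest, 3 held one, and chance alone gives about 1 in 20. Ndufv2 in vehicle replicate 1 was at 47.9 FPKM, against 41.5 to 42.2 FPKM in the other vehicle libraries. Atpaf1 in vehicle replicate 2 was at 5.84 FPKM, against 6.39 to 6.46 FPKM in the others. Idh3a in Mic-628 replicate 4 was at 24.9 FPKM, against 25.9 to 26.1 FPKM in the others.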

How the results depend on the processing

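For the 88 oxidative phosphorylation genes the 0 calls held under every alternative tried except leaving out vehicle replicate 1 (1 call), batch 1 or batch 4. Leaving out 1 library gave 0 to 1 calls in all, 0 to 1 higher and 0 to 1 in complex I. Without batch 1 it was 2, both higher and in complex I, and without batch 4 it was 1, lower and in complex V. With the replicate block, which pairs libraries by batch, 0 were called and no call of these genes changed. For the 13 mitochondrially encoded subunits, 1 was called with no low-count filter, with the replicate block, in DESeq2 with the block, and without batch 1 or 4, and 0 to 2 on leaving out a library. The call among assembly factors, Nubpl, went to 0 with the block, in DESeq2 with or without it, in limma at either pseudocount or on all rows, without any batch, and at 0.01, with 0 to 1 on leaving out a library. The citric acid cycle count went to 2 with library size only and without batch 1, and to 0 in DESeq2 with the block, in limma in all 3 forms, without batch 2, 3 or 4, and at 0.01, with 0 to 2 on leaving out a library. Electron carriers had 1 call without batch 1, and mitochondrial ribosomal proteins 0 to 1 on leaving out a library. The cause of these changes was not tested.

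Log2 fold changes near 0 changed sign. Leaving out a library gave -0.022 to 0.036 for Cox6a1, -0.023 to 0.035 for Cox6b1, -0.014 to 0.027 for Cox7a2l, -0.096 to 0.025 for Cox7a2, -0.024 to 0.055 for Ndufa4, -0.008 to 0.121 for Ndufaf2 and -0.07 to 0.037 for Uqcrh, and -0.001 to 0.093 for the difference in the log2 ratio of Cox7a2l to Cox7a2. With DESeq2 size factors, library size only, the stricter filter, DESeq2 and DESeq2 with the block, Cox6a1 was at 0.002, 0.006, 0.0009, 0.003 and 0.002, and Cox6b1 at 0.002, 0.006, 0.0006, 0.002 and 0.003. With the block Cox6b1 was at 0.001 and Cox7a2l at -0.0005. In limma Cox6b1 was at 0.0007 and Cox7a2l at -0.002 in all 3 forms. Without batch 1, Uqcrh was at 0.052, Cox6b1 at 0.027 and Cox7a2 at 0.053. Without batch 2, Cox6a1 was at 0.034 and Cox7a2l at -0.007. Without batch 3, Ndufaf2 was at -0.013, Cox7a2l at -0.017 and Ndufa4 at -0.021. Without batch 4, Uqcr11 was at -0.009, Cox6a1 at 0.012, Cox6b1 at 0.0004 and Ndufa4 at -0.03. The precision allowed 83 of the 88 genes to be placed within 1.2-fold, and Atp5me, Cox6a2, Ndufaf3, Ndufaf6 and Ndufb3 only within 1.5-fold.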
